A study of Mus musculus with 3 samples.

Results

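A set of 10 genes was followed in the endothelium of mouse liver, picked by symbol from the 32285 features of the count tables. Of these, 6 are scavenger or sinusoidal genes (Stab1, Stab2, Lyve1, Fcgr2b, Clec4g, Dnase1l3) and 4 are used as marks of capillarization or of larger vessels (Plvap, Cd34, Vwf, Edn1). Levels were read in endothelial nuclei, defined as nuclei with at least 3 unique molecular identifiers (UMIs) over Ptprb, Adgrl4, Flt1 and Plekhg1. Endothelial nuclei with a Vwf UMI were kept apart. All 10 genes were found by symbol. In Vwf-negative endothelial nuclei, 7 of the 10 reached 20 UMIs over the libraries compared, and Cd34, Vwf and Edn1 did not.

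Liver sinusoidal endothelial cells line the sinusoids with fenestrae and no continuous basement membrane, and they clear waste macromolecules and small immune complexes from blood through endocytic receptors. Capillarization is the name for the loss of fenestrae and the gain of a basement membrane and of capillary-type surface proteins, and it is described in chronic liver disease. Veins and arteries of the liver carry an endothelium of another kind, in which von Willebrand factor is stored.

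The 3 libraries were single-nucleus RNA sequencing of frozen liver from male C57BL/6N mice, which were 8 weeks old when the feeding began. The SD library came from mice on a standard diet. The MASLD library, named for metabolic dysfunction-associated steatotic liver disease, came from mice kept for 18 weeks on a diet that brings this disease about, with a drink that the labels call a sucrose solution and that held glucose and fructose. The Aza-TdC library came from mice on that same diet and drink that also received 5-Aza-4′-thio-2′-deoxycytidine, a nucleoside analogue that inhibits DNA methylation, given by gavage each day from week 14 to week 18 at 2 mg/kg. Each group had 1 library, and the sources used here do not give the number of animals behind it. No test between groups was therefore possible, and every interval below is a 95% interval that covers counting error only.

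The libraries held 7139 (SD), 6928 (MASLD) and 7598 (Aza-TdC) barcodes with median depths of 5849 to 6383 UMIs, and they shared 9 to 15 barcodes in pairs. After filters, 128 of 7139 SD nuclei (1.79%), 199 of 6726 MASLD nuclei (2.96%, 2.57 to 3.39) and 202 of 7591 Aza-TdC nuclei (2.66%, exact binomial interval 2.31 to 3.05) were endothelial. The libraries differed in their shallow barcodes: the smallest SD barcode held 1546 UMIs against 500 in the other libraries, and among nuclei at or above 1546 UMIs the shares were 1.79%, 2.00% and 1.67%. A Vwf UMI was present in 15, 7 and 36 of the endothelial nuclei, which left 113, 192 and 166 Vwf-negative nuclei with 320577, 525570 and 393347 UMIs. Genes outside the gate marked these nuclei as endothelial too. Kdr, a VEGF receptor, stood at 434, 514 and 419 CPM in the SD, MASLD and Aza-TdC libraries (CPM is a gene's UMIs scaled to the summed UMIs of all nuclei of the class in that library), against at most 1.32 CPM in nuclei that passed no gate. Hepatocyte RNA was present in Vwf-negative nuclei too: 12 hepatocyte markers summed to 11423, 14048 and 11939 CPM in SD, MASLD and Aza-TdC. In nuclei that passed no gate the same markers summed to 17731, 17753 and 20209 CPM. Within the Vwf-negative class the median mitochondrial share of UMIs was 0.315% for SD, 1.99% for MASLD and 0.429% for Aza-TdC. A mitochondrial share over 1% was found in 0 of 113, 140 of 192 and 30 of 166 Vwf-negative nuclei.

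The gene models differ widely in size, and CPM is not scaled for it, so levels are compared between libraries and classes and not between genes. On GRCm38, Stab2 spans 166828 bases of chr10:86841198-87008025 (minus strand), with 69 exons and 158600 bases outside the longest transcript. Stab1, with the same number of exons, spans 29629 bases (chr14:31139013-31168641, minus strand). Dnase1l3 spans 30041 bases (chr14:7964533-7994573), Fcgr2b 17931 (chr1:170958617-170976547), Clec4g 13588 (chr8:3707064-3720651) and Lyve1 12633 (chr7:110850607-110863239), all on the minus strand. Of the vessel genes, Vwf spans 139906 bases (chr6:125546774-125686679, plus strand), and Edn1 spans 6515 (chr13:42301476-42307990, plus strand). Plvap lies at chr8:71497765-71511752 on the minus strand and Cd34 at chr1:194938819-194961279 on the plus strand. Stab1 overlaps Nt5dc2 and Plvap overlaps Gtpbp3, each on the opposite strand. Stab2, Fcgr2b, Clec4g, Cd34 and Edn1 overlap unnamed transcripts on the opposite strand. The sources used here do not say whether counting used strand or introns, so reads of such pairs cannot be told apart, and Fcgr2b has near-identical relatives among the Fc receptor genes.

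RefSeq promoters were at hand for 6 of the 10 genes. Of these, 3 are shown because they stand for the 3 patterns described below: Stab1 was at similar levels in endothelial nuclei with and without Vwf, Clec4g was lower in nuclei with Vwf, and Edn1 was found nearly always in nuclei with Vwf. Each is the 250 bases before the RefSeq start (GRCm38.p6), 5′ to 3′ on the gene's strand: chr14:31168642-31168891 (minus) for Stab1, chr8:3720652-3720901 (minus) for Clec4g and chr13:42301226-42301475 (plus) for Edn1. Capitals mark AGGAAG, a form of the core bound by ETS factors, or its reverse complement CTTCCT.
Stab1: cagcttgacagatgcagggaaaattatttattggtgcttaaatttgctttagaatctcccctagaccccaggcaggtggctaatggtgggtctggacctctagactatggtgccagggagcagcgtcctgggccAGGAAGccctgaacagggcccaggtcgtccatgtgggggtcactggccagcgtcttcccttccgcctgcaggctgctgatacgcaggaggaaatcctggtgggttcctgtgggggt
Clec4g: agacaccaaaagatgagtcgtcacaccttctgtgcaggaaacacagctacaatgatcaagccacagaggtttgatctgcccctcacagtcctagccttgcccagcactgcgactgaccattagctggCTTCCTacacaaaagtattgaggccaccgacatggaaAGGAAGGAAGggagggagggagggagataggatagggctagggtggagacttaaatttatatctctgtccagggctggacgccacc
Edn1: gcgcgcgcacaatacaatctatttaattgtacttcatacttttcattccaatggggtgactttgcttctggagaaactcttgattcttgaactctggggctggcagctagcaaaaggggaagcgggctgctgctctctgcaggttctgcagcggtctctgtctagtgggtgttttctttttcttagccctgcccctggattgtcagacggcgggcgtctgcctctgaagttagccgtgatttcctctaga
AGGAAG was found, on either strand, in the windows of Stab1, Stab2, Clec4g and Cd34, and not in those of Fcgr2b and Edn1. The Clec4g window held 3 matches, of which 2 overlap each other. Of 32851 promoter windows of that length, 29.5% held the motif. None of the 6 windows held AGATAA or TGATAA (forms of the core bound by GATA factors), CCGGAA or TGAGTCA, searched on both strands. These occur in 9.99%, 7.94%, 12.0% and 4.46% of all windows. Other forms of the GATA core, such as AGATAG, which the Clec4g window holds, were not searched. Nor were forms of the ETS core other than AGGAAG and CCGGAA, such as GGGAAG, which the Edn1 window holds.

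In Vwf-negative endothelial nuclei the scavenger genes did not move as a block between libraries. Lyve1, Fcgr2b, Clec4g and Dnase1l3 were higher in MASLD than in SD and near the SD level again in Aza-TdC. Stab1 and Stab2, the large receptors of the stabilin family, did not share that pattern. In MASLD against SD, 2 of the 6 scavenger genes had a log2 ratio of CPM of at least 1 (Lyve1 and Fcgr2b) and none was at or below -1. Over all 7306 genes with at least 20 UMIs in the pair of libraries, 12% were at or above 1 and 6.04% at or below -1. The median over the 6 was 0.89, against -0.01 over all genes.

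Stab2, a receptor for hyaluronan and other waste macromolecules, stood at 4099 CPM in SD (interval 3880 to 4327), 2736 for MASLD and 3188 for Aza-TdC. SD was the highest library and MASLD the lowest, and no intervals overlapped. The log2 ratio was -0.58 (-0.69 to -0.47) for MASLD over SD and 0.22 (0.11 to 0.33) for Aza-TdC over MASLD. The ratio for Aza-TdC over SD was -0.36 (-0.48 to -0.25). Stab1, which takes up oxidized lipoproteins among other ligands, stood at 568, 500 and 592 CPM in SD, MASLD and Aza-TdC. Its 3 intervals overlapped, and its log2 ratios were -0.18 (-0.46 to 0.10), 0.24 (-0.02 to 0.50) and 0.06 (-0.22 to 0.35) for MASLD over SD, Aza-TdC over MASLD and Aza-TdC over SD.

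Lyve1, a hyaluronan receptor shared with lymphatic vessels, stood at 78.0 CPM in SD (25 UMIs), 221 in MASLD (116 UMIs) and 66.1 in Aza-TdC (26 UMIs). MASLD was high and the other libraries overlapped. MASLD was 2.83-fold SD (1.83 to 4.55), and the log2 ratio for Aza-TdC over MASLD was -1.74 (-2.41 to -1.12). Fcgr2b, the inhibitory Fc receptor that removes small immune complexes, stood at 287, 723 and 297 CPM in SD, MASLD and Aza-TdC. Again the MASLD library stood alone, with a log2 ratio over SD of 1.33 (1.00 to 1.68). The ratio for Aza-TdC over MASLD was -1.28 (-1.59 to -0.98), and that for Aza-TdC over SD was 0.05 (-0.35 to 0.46).

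Clec4g, a C-type lectin of sinusoidal endothelium, stood at 437, 812 and 519 CPM in SD, MASLD and Aza-TdC. Dnase1l3, a secreted nuclease that degrades DNA in microparticles, stood at 346, 637 and 323 CPM. For both genes MASLD was highest and the other libraries overlapped. The log2 ratios for MASLD over SD were 0.90 (0.62 to 1.18) for Clec4g and 0.88 (0.57 to 1.20) for Dnase1l3. For Aza-TdC over MASLD they were -0.65 (-0.90 to -0.40) and -0.98 (-1.29 to -0.68). In that pair 2 of the 6 scavenger genes were at or below -1, against 6.72% of 7666 genes, and none was at or above 1, against 5.14%. In Aza-TdC over SD none of the 6 was past 1 either way, against 8.97% at or above 1 and 4.95% at or below -1 of 6621 genes.

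**Figure D1:**
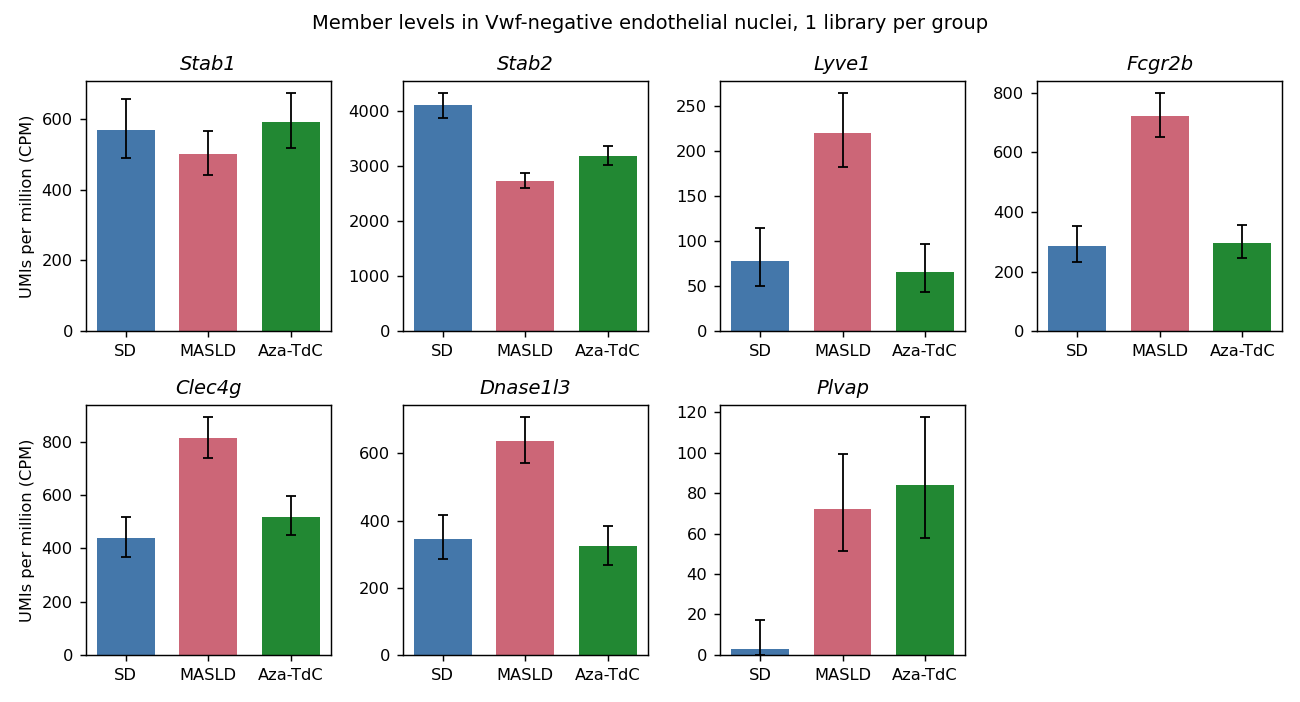
Bars give the CPM of 7 genes summed over Vwf-negative endothelial nuclei, with 1 library per group on the x axis and exact Poisson 95% intervals (counting error only). MASLD is the highest library for Lyve1, Fcgr2b, Clec4g and Dnase1l3, SD for Stab2, and Plvap rests on 1, 38 and 33 UMIs.

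The 4 gate genes had log2 ratios for MASLD over SD between -0.38 and 0.12, but the nuclei were chosen on them, so they are no independent reference. Scaling by the median ratio of all genes would raise every log2 ratio of MASLD over SD by 0.15, which puts 4 of the 6 scavenger genes and 15.2% of 7306 genes at or above 1. With an endothelial gate of 2 UMIs, 4 of the 6 and 11.8% of 8288 genes were at or above 1.

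By share of nuclei with a UMI, MASLD was again the highest library for Lyve1, Fcgr2b, Clec4g and Dnase1l3. The order of SD and Aza-TdC varied with depth for Fcgr2b and Clec4g. Stab1 was detected in 69.0%, 66.1% and 66.9% of SD, MASLD and Aza-TdC nuclei before thinning. Fcgr2b was detected in 55 of 113 SD (48.7%), 147 of 192 MASLD (76.6%) and 76 of 166 Aza-TdC nuclei (45.8%). With every nucleus thinned to 2000 UMIs, which left out 45, 106 and 113 shallower nuclei, Fcgr2b was detected in 27.9% (17.7 to 40.1), 61.6% (50.5 to 71.9) and 45.3% (31.6 to 59.6). Lyve1 was detected in 13.2%, 29.1% and 7.55% of thinned nuclei and Dnase1l3 in 39.7%, 61.6% and 37.7%. Stab2 was detected in 80.9%, 90.7% and 84.9%, although its CPM was highest in SD, so no order is read from that share. In nuclei that passed no gate, whose median depth was 5913 to 6655 UMIs, Stab2 had a UMI in 3.79%, 5.78% and 2.90%, and Fcgr2b in 0.853%, 1.58% and 0.710%. A Vwf-negative endothelial nucleus held UMIs of a median of 4, 5 and 3 of the 6 scavenger genes in SD, MASLD and Aza-TdC, and of 3, 4 and 3 when thinned.

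The MASLD levels differed with the mitochondrial share of the nuclei, and SD holds no Vwf-negative nucleus over 1%. Among nuclei with at most 1% mitochondrial UMIs (113 in SD, 52 in MASLD, 136 in Aza-TdC), none of the 6 scavenger genes was at or above 1 for MASLD over SD and 1, Stab2, was at or below -1. In these nuclei 8.39% of 5449 genes were at or above 1 and 8.48% at or below -1. Stab2 stood at 4099 CPM for SD, 1892 for MASLD and 3209 for Aza-TdC. Its log2 ratio was -1.12 (-1.29 to -0.95) for MASLD over SD and 0.76 (0.59 to 0.94) for Aza-TdC over MASLD. Stab1 moved the same way, at -0.53 (-0.94 to -0.14) and 0.41 (0.02 to 0.82).

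Of the 4 genes that were higher in MASLD, only Lyve1 kept an interval above 0 in those nuclei, at 0.87 (0.04 to 1.71) over 28 and 25 UMIs. Fcgr2b stood at 287 CPM for SD, 393 for MASLD and 280 for Aza-TdC, a log2 ratio for MASLD over SD of 0.45 (-0.00 to 0.90). Clec4g and Dnase1l3 were at 0.06 (-0.34 to 0.45) and -0.11 (-0.58 to 0.35). The median of the 6 was then -0.03 for MASLD over SD and -0.02 for Aza-TdC over MASLD. For Aza-TdC over MASLD in those nuclei none of the 6 was past 1 either way, with Lyve1 nearest, at 71.5 CPM against 143 (log2 interval -1.84 to -0.17), beside 8.86% of 5712 genes at or above 1 and 6.2% at or below -1. For Aza-TdC over SD none was past 1 either, against 8.29% and 5.19% of 6378 genes. The 4 gate genes, on which the nuclei were chosen, had a median of -0.46 for MASLD over SD in the same nuclei and -0.08 in all nuclei. Nuclei over 1% (140 in MASLD, 30 in Aza-TdC) differed from these for Aza-TdC over MASLD. There Lyve1 was at -3.54 (-8.86 to -1.03, 1 against 88 UMIs), Fcgr2b at -1.08 (-1.83 to -0.41) and Stab1 at 1.02 (0.54 to 1.48). Clec4g, Dnase1l3 and Stab2 were at -0.44, -0.53 and -0.10. Of 4257 genes, 7.38% were at or above 1 and 15.0% at or below -1.

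**Figure D2:**
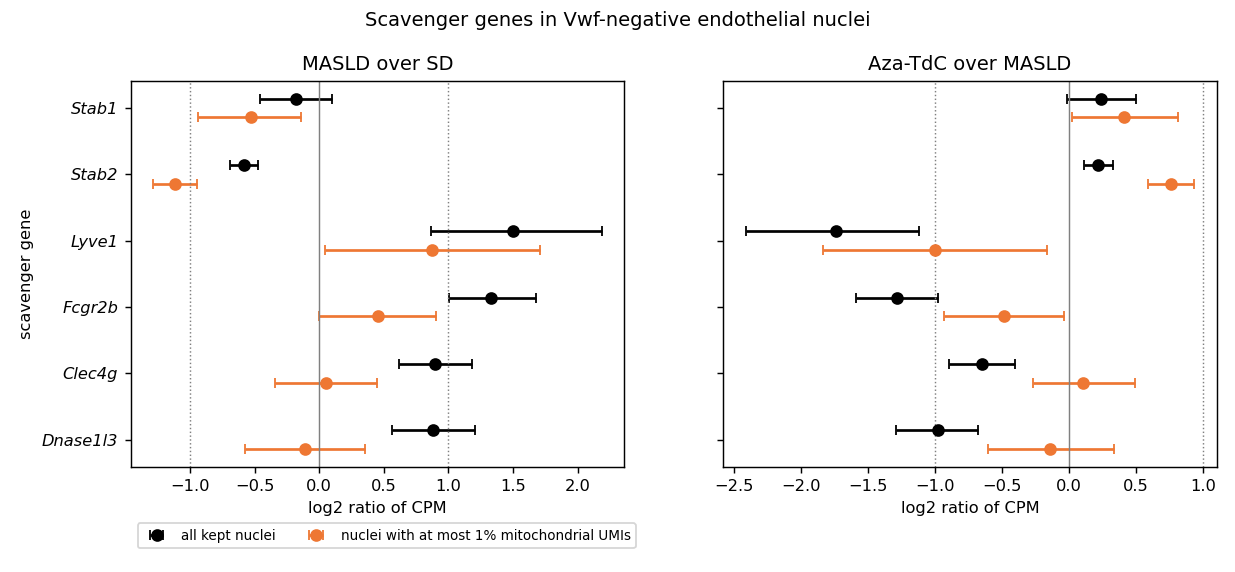
Points give log2 ratios of CPM with 95% intervals (counting error only) for the 6 scavenger genes, MASLD over SD on the left and Aza-TdC over MASLD on the right, in all Vwf-negative endothelial nuclei (black) and in those with at most 1% mitochondrial UMIs (orange). With the limit, Fcgr2b, Clec4g and Dnase1l3 move toward 0 in both panels and Stab2 reaches -1.12 on the left.

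Within the MASLD library itself, each scavenger gene was higher in the 140 nuclei over 1% than in the 52 nuclei at or under it. The log2 ratio was largest for Dnase1l3, 1.36 (0.96 to 1.78), from 321 to 826 CPM. It was 1.23 for Fcgr2b, 1.18 for Clec4g, 0.90 for Lyve1, 0.78 for Stab2 and 0.52 for Stab1. Thus 3 of the 6 were at or above 1, where 11.2% of 5562 genes were. Mrc1, the mannose receptor, was higher there too, at 1.08. The gate genes Ptprb, Adgrl4, Flt1 and Plekhg1 had ratios of 0.58, 0.65, 0.79 and 0.33. The nuclei were chosen on those genes, so they are no independent reference. In the Aza-TdC library, with 30 nuclei over 1%, 1 of the 6 was at or above 1 (Stab1, 1.13, 0.65 to 1.59), where 8.67% of 4545 genes were. There Lyve1 had 1 UMI in nuclei over 1% and 25 in the others (-1.64, -7.00 to 0.97), the 1 scavenger gene at or below -1, where 21.6% of genes were, and Stab2 was at -0.09 (-0.36 to 0.18). Hemoglobin genes, whose transcripts belong to red blood cells, also differed: the 4 summed to 49.9, 835 and 175 CPM in Vwf-negative nuclei of SD, MASLD and Aza-TdC, with Hbb-bt at 0 in SD. Their part in the scavenger ratios was not tested. Without nuclei that passed the gate of another class, 2 of the 6 were at or above 1 for MASLD over SD (11.7% of 6664 genes) and none at or below -1 (6.3%). For Aza-TdC over MASLD the counts were 0 (4.32% of 6790 genes) and 2 (7.38%), and for Aza-TdC over SD 0 (7.33% of 5935 genes) and 0 (5%).

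The capillarization genes were scarce in Vwf-negative nuclei, and only Plvap could be compared. Plvap, a protein of the diaphragms that close capillary fenestrae, had 1 UMI in SD (3.12 CPM), 38 in MASLD (72.3 CPM) and 33 in Aza-TdC (83.9 CPM). SD was low and the other libraries overlapped. The ratio of MASLD to SD was 23.2 (3.92 to 939), or 4.53 on the log2 scale, and that of Aza-TdC to SD was 26.9 (4.50 to 1094). The ratio of Aza-TdC to MASLD was 0.21 on the log2 scale (-0.50 to 0.93).

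These Plvap UMIs did not all lie in plain endothelial nuclei. Of the Vwf-negative nuclei, 10 (SD), 21 (MASLD) and 24 (Aza-TdC) also passed the gate of another class, most often that of stellate cells (8, 12 and 20), the vitamin A-storing pericytes of the sinusoid. They held 1 of 1, 12 of 38 and 27 of 33 Plvap UMIs, and 1 Aza-TdC nucleus alone held 11. Without them Plvap had 0 UMIs in SD, 26 in MASLD (59.6 CPM, 39.0 to 87.4) and 6 in Aza-TdC (19.1 CPM, 7.02 to 41.6). The log2 ratio of Aza-TdC to MASLD was then -1.64 (-3.21 to -0.33), where it was 0.21 with them. The part of stellate RNA in the Plvap values of such nuclei was not tested.

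Plvap was higher in nuclei of the stellate gate than in Vwf-negative endothelial nuclei. With at least 5 UMIs over Reln, Pdgfrb, Lrat and Dcn and no other gate passed, 65 SD, 84 MASLD and 59 Aza-TdC nuclei gave 114 CPM (76.7 to 162), 311 (245 to 389) and 192 (131 to 271). A Plvap UMI was present in 17, 42 and 19 of them. Vwf-negative endothelial nuclei held 2.04%, 21.3% and 22.8% of each library's Plvap UMIs, where they held 80.3%, 74.8% and 74.9% of its Stab2 UMIs. In MASLD, 36 of the 38 endothelial Plvap UMIs lay in nuclei over 1% mitochondrial UMIs, and nuclei at or under 1% held 1, 2 and 27 UMIs in SD, MASLD and Aza-TdC.

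**Figure D3:**
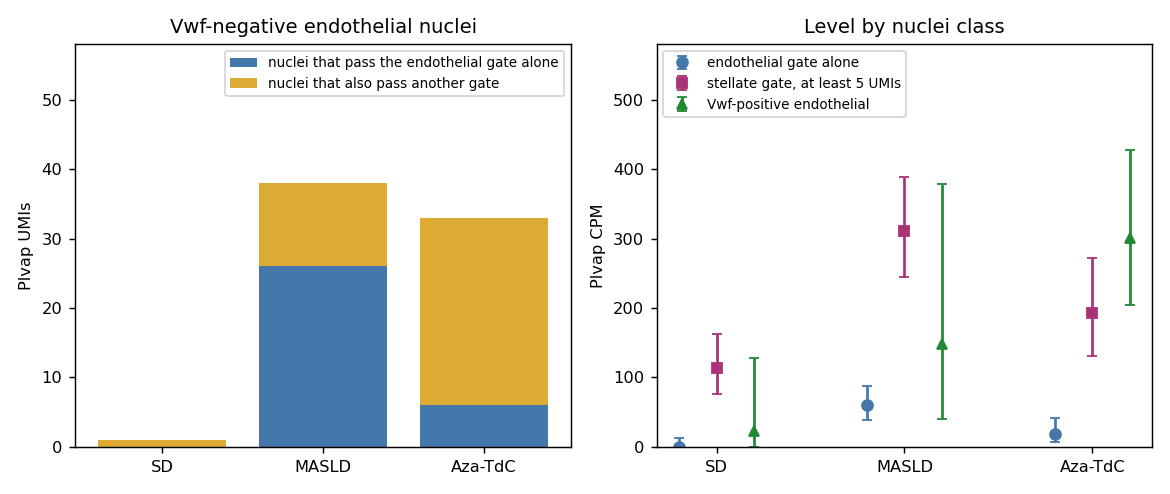
The left panel counts Plvap UMIs in Vwf-negative endothelial nuclei by library, split by whether the nucleus passed the endothelial gate alone (blue) or another gate too (yellow). The right panel gives Plvap CPM with exact Poisson 95% intervals in 3 nuclei classes, where stellate nuclei stand above endothelial nuclei that passed 1 gate alone in each library.

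In MASLD the 28 Plvap-positive Vwf-negative nuclei did not hold fewer scavenger transcripts than the 164 others. Stab2 stood at 3985 CPM in them and 2539 in the rest, a log2 ratio of 0.65 (0.46 to 0.84), and Stab1 at -0.09 (-0.66 to 0.43). Nuclei over 1% mitochondrial UMIs held 36 of the 38 Plvap UMIs of MASLD. Stab2 was also higher in those nuclei, at 0.78, so the Plvap and mitochondrial splits cannot be told apart. In Aza-TdC, where most such UMIs lay in nuclei of a second gate, the 15 Plvap-positive nuclei had less Stab2, at -1.35 (-1.71 to -1.02). Rspo3, a Wnt pathway activator made by central vein endothelium, was higher in Plvap-positive nuclei of both libraries, at 4.57 (3.41 to 5.90) and 2.11 (1.15 to 3.04). Its UMIs lay in few of these nuclei: 30 UMIs in 7 of 28 in MASLD and 18 in 7 of 15 in Aza-TdC. Wnt2, another central vein marker, did not share the higher level, at 0.49 in MASLD and -1.28 in Aza-TdC, on 10 and 2 UMIs in Plvap-positive nuclei. Wnt9b had 1 and 0 UMIs there. In stellate nuclei (gate of 3 UMIs) the 6 central vein markers summed to 372 and 489 CPM, with Wnt2, Wnt9b, Kit and Bmx at 0. The part of stellate RNA in the Rspo3 values was not tested.

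Cd34, a sialomucin of capillaries and many progenitor cells, gave 0, 5 and 0 UMIs in Vwf-negative endothelial nuclei of SD, MASLD and Aza-TdC. A count of 0 allows up to 9.36 CPM in SD and 7.63 CPM in Aza-TdC (3 counts). Its highest level was in mesothelial-gate nuclei, which cover the liver surface, at 25.6, 157 and 74.8 CPM on 1, 8 and 5 UMIs.

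Edn1, which encodes the vasoconstrictor endothelin-1, was found almost entirely in Vwf-positive endothelial nuclei. Those nuclei held 16 of 18 SD, 10 of 13 MASLD and 62 of 71 Aza-TdC UMIs of the gene, while Vwf-negative endothelial nuclei held 1, 0 and 1. Its level in Vwf-positive nuclei was 366 CPM for SD, 369 for MASLD and 602 for Aza-TdC. The intervals overlapped, with log2 ratios of 0.01 (-1.29 to 1.24) for MASLD over SD and 0.71 (-0.27 to 1.83) for Aza-TdC over MASLD. Between nuclei with and without Vwf, the log2 ratio was 6.87 (4.19 to 12.3) in SD and 7.89 (5.36 to 13.2) in Aza-TdC. In MASLD the level with Vwf was 64.7-fold a floor of 3 counts, and the lower limit of the log2 ratio was 5.44.

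The receptors of endothelin lay in another class. Ednra and Ednrb were highest in stellate nuclei, where, with the gate of 5 UMIs, Ednra stood at 254, 409 and 426 CPM in SD, MASLD and Aza-TdC and Ednrb at 178, 233 and 114. In Vwf-negative endothelial nuclei Ednra stood at 34.3, 32.3 and 168 CPM. The 8 stellate markers summed to 571, 951 and 2204 CPM in the same nuclei, with Ngfr at 0 in SD, and the part of stellate RNA in that Ednra value was not tested. For Aza-TdC over MASLD, 1 of 3 measured genes of the endothelin list, Ednra, was at or above 1 (2.38, 1.59 to 3.24, beside 5.14% of all genes). Without nuclei that passed a second gate, 0 of 2 measured genes were (4.32% of all genes). Ece1, which cuts the endothelin precursor, was broad: it stood at 193, 145 and 188 CPM in Vwf-negative endothelial nuclei and at 286, 135 and 155 in nuclei of no gate.

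Vwf itself set the split, so its level is given as a description only: 1005, 1809 and 1933 CPM in Vwf-positive nuclei of SD, MASLD and Aza-TdC. These nuclei were 11.7% (6.71 to 18.6), 3.52% (1.43 to 7.11) and 17.8% (12.8 to 23.8) of endothelial nuclei. The Aza-TdC share depended on depth: with nuclei thinned to 2000 UMIs the shares were 9.52% (3.58 to 19.6), 5.41% (1.49 to 13.3) and 35.5% (23.7 to 48.7), and at or above the smallest SD barcode that of Aza-TdC was 24.0% (16.7 to 32.6). Their median depth was 2133, 2375 and 2443.5 UMIs, against 2187, 1886.5 and 1626.5 in Vwf-negative nuclei. They carried more of some central vein genes: Rspo3 stood at 1851, 1255 and 2098 CPM with Vwf and at 31.2, 72.3 and 109 without. Wnt9b, a Wnt ligand of central vein endothelium, stood at 160, 222 and 330 CPM with Vwf and at most 7.63 without. Wnt2 was less clear, at 137, 73.9 and 175 CPM with Vwf and 56.1, 105 and 78.8 without. Kit was at 0 with Vwf in MASLD. The 8 portal and arterial markers summed to 731, 480 and 612 CPM with Vwf and to 299, 538 and 366 without. Of these, Gja5 and Hey1 were at 0 with Vwf in each library. A nucleus without a Vwf UMI can still be of a large vessel, since a single gene may be missed at these depths.

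Compared with their Vwf-negative neighbours in the same library, Vwf-positive nuclei held less of most scavenger genes. In SD the log2 ratio of nuclei with Vwf to those without was at or below -1 for 4 of the 6, where 19.8% of 4164 genes were, in MASLD for 4 (26.8% of 5782 genes) and in Aza-TdC for 5 (17.3% of 5364 genes). None of the 6 was at or above 1, against 8.19%, 12.9% and 8.3% of genes. Stab2 stood at 480 CPM with Vwf and 4099 without in SD, and at 330 and 3188 in Aza-TdC, log2 ratios of -3.09 (-3.79 to -2.48) and -3.27 (-3.81 to -2.78). In MASLD the 7 Vwf-positive nuclei held no Stab2 UMI. A floor of 3 counts there was 24.7-fold below the level without Vwf, and the upper limit of the log2 ratio was -4.33. Clec4g stood at 137, 111 and 29.1 CPM with Vwf, log2 ratios of -1.67, -2.87 and -4.15. Fcgr2b and Dnase1l3 had 0 to 6 UMIs in each Vwf-positive group.

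Stab1 was the exception among the stabilins. It stood at 366, 591 and 719 CPM with Vwf and 568, 500 and 592 without, so each pair of intervals overlapped. The log2 ratios were -0.64 (-1.47 to 0.10), 0.24 (-0.59 to 0.97) and 0.28 (-0.12 to 0.66). Plvap was higher with Vwf in Aza-TdC, at 301 CPM against 83.9 (1.84, 1.09 to 2.60), while SD and MASLD gave 1 and 4 Plvap UMIs with Vwf. Pecam1, an adhesion protein of all endothelium, was also higher with Vwf in each library, at 2.19, 1.34 and 2.60 on the log2 scale.

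**Figure D4:**
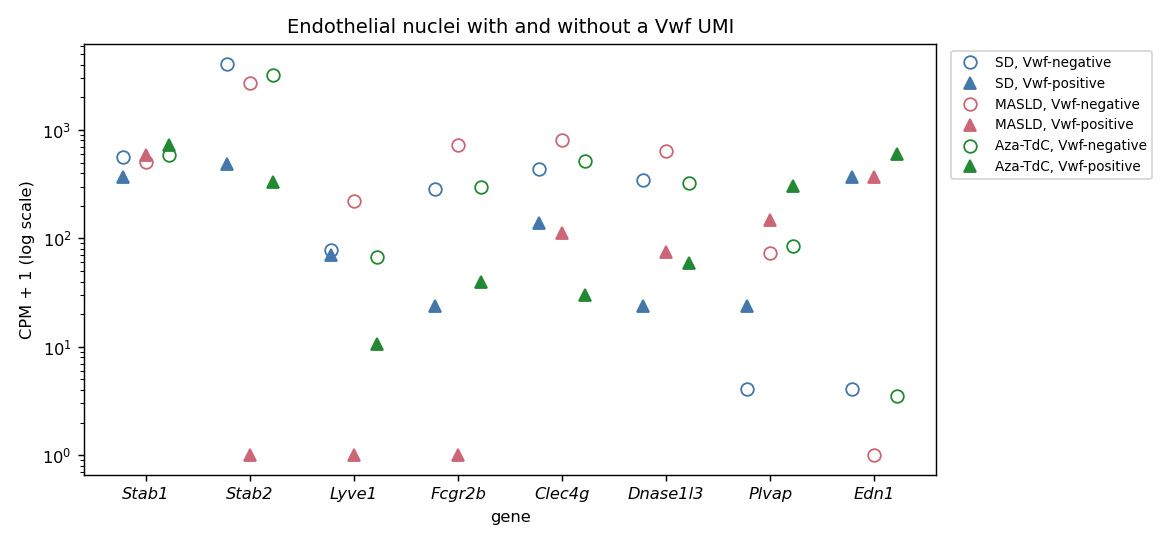
CPM plus 1 on a log axis for 8 genes in endothelial nuclei with (filled triangles) and without (open circles) a Vwf UMI, coloured by library. Stab1 is close in both kinds of nuclei, most other scavenger points lie lower with Vwf, and Edn1 lies higher with Vwf.

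Across nuclei classes the scavenger genes were highest in Vwf-negative endothelial nuclei in each library, except that Stab1 was higher with Vwf in MASLD and Aza-TdC. The level in SD was 209-fold (Fcgr2b) to 680-fold (Lyve1) above that in nuclei of no gate. Macrophage-gate nuclei held Stab1 at 190, 119 and 72.3 CPM in SD (10 nuclei), MASLD (94) and Aza-TdC (170), and Stab2 at 0, 134 and 117. Fcgr2b stood at 68.7 CPM in macrophage-gate nuclei of MASLD and 3.91 in those of Aza-TdC. Mesothelial-gate nuclei held no UMI of any of the 6 scavenger genes, over 14, 22 and 26 nuclei. Lyve1 stood at 76.2 CPM in the SD macrophage gate, on 2 UMIs, close to its endothelial level. The lymphocyte gate took in deep nuclei in each library and is not described.

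**Figure D5:**
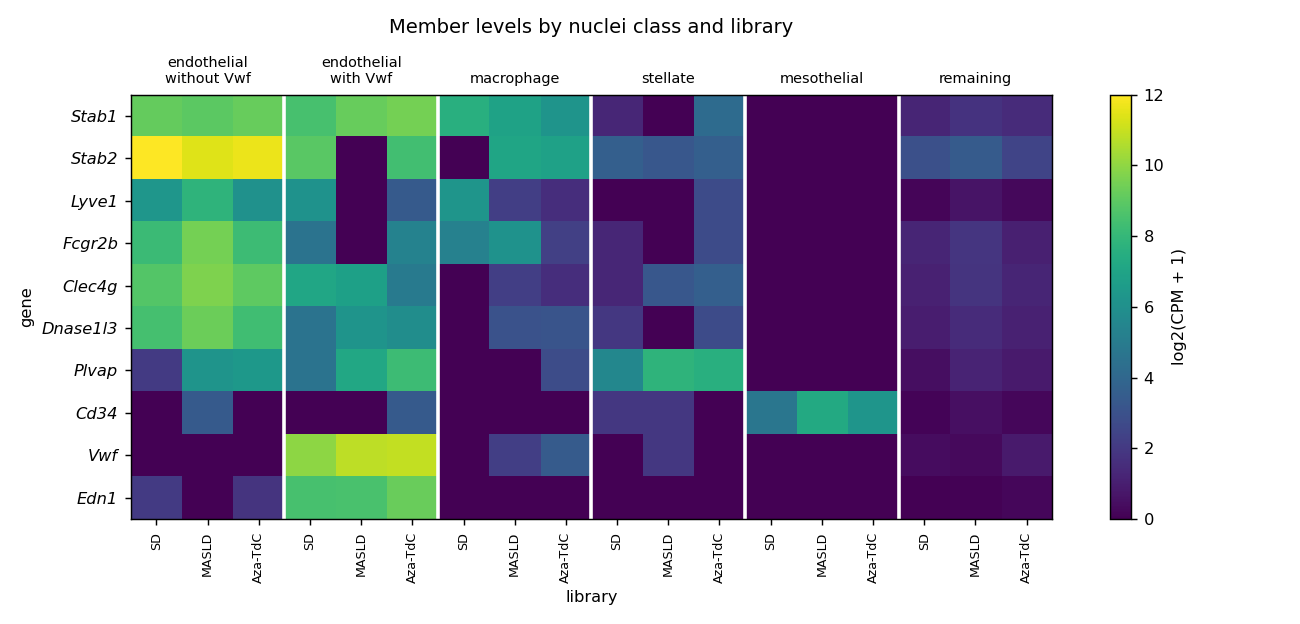
Colour gives log2(CPM + 1) of the 10 genes (rows) in 6 nuclei classes, with the SD, MASLD and Aza-TdC libraries side by side within each class (columns). The scavenger genes fill the Vwf-negative endothelial columns, Edn1 and Vwf those with Vwf, Plvap also the stellate columns and Cd34 the mesothelial columns.

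Genes with the most similar profile were named by Pearson correlation of log2(CPM + 1) with the group mean over 21 class-by-library sums, which share libraries and are not independent. For the scavenger genes these were Srgap1 (0.93), Bmp6 (0.92), Rasgrp3 (0.91), Ushbp1 (0.91) and Nrp1 (0.91). Bmp6, the endothelial signal for hepatic iron sensing, stood at 824, 531 and 641 CPM in Vwf-negative nuclei. For the capillarization genes they were Thsd7a (0.87), Ccn2 (0.85), Mecom (0.83), Bmpr2 (0.83) and Ramp2 (0.82). That group mean includes Vwf, which the split itself sets to 0 in Vwf-negative endothelial nuclei. Genes high in Vwf-positive nuclei are thus favoured by construction, and the list is no evidence of capillarization. Thsd7a stood at 1257, 886 and 1330 CPM with Vwf and at most 25.0 without. Cd34 followed its own group's mean poorly, with a correlation of 0.16.

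Other genes of endocytosis were described from a fixed list, in MASLD over SD in Vwf-negative nuclei. Of 14 measured, 4 were at or above 1 (12% of all genes) and none at or below -1 (6.04%), with a median of -0.00. The highest was Gpr182, an atypical chemokine receptor, at 43.7 CPM for SD, 367 for MASLD and 135 for Aza-TdC (3.07, 2.29 to 3.97, for MASLD over SD). Cd36, a fatty acid and lipoprotein receptor, stood at 99.8, 540 and 303 CPM (2.44, 1.91 to 3.01). The others were Cd93 (1.46) and Msr1 (1.24). Macrophages also express Msr1 and Cd36, and 8 macrophage markers summed to 9.36, 173 and 287 CPM in Vwf-negative nuclei of SD, MASLD and Aza-TdC, with 6 of the 8, among them Clec4f, Adgre1 and Cd5l, at 0 in SD. The part of macrophage or hepatocyte RNA in these ratios was not tested. In nuclei with at most 1% mitochondrial UMIs Cd36 was at 2.32 (1.73 to 2.95) and Gpr182 at 1.95 (1.00 to 2.96), the 2 of the list at or above 1 (8.39% of all genes). The 2 at or below -1 (8.48%) were Ehd3 and Dab2, at -1.14 and -1.01. Mrc1, the mannose receptor, was at -0.02 in all nuclei and -0.79 (-1.09 to -0.50) in the latter.

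Of the basement membrane and capillary list, 7 of 15 measured genes were at or above 1 for MASLD over SD (12% of all genes), with a median of 0.71. Ly6a had 0 UMIs in SD and 49 in MASLD, 9.96-fold a floor of 3 counts, with a lower limit of 2.96 for the log2 ratio. Cd9, Sparc (a matrix glycoprotein) and Fabp4 (a fatty acid carrier of capillaries) were at 2.40, 1.83 and 1.78. In nuclei with at most 1% mitochondrial UMIs 0 of 10 measured genes of that list were at or above 1 (8.39% of all genes), with a median of 0.15. Of the adhesion and junction list, 5 of 8 were at or above 1 (12% of all genes), led by Mcam (2.93) and Cldn5 (2.65). At the lower mitochondrial share 2 of 6 were (8.39%): Vcam1 (1.12) and Cldn5 (1.60).

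For Aza-TdC over MASLD, 3 of 14 basement membrane and capillary genes (Fabp4, Sparc, Ly6a) and 3 of 9 adhesion genes (Icam2, Cldn5, Mcam) were at or below -1, as were 6.72% of all genes. Icam1, a leukocyte adhesion receptor, was the 1 adhesion gene at or above 1 (5.14% of all genes). It stood at 9.36 CPM for SD, 26.6 for MASLD and 91.5 for Aza-TdC, a log2 ratio for Aza-TdC over MASLD of 1.78 (0.85 to 2.79), and 1.26 (0.12 to 2.48) without nuclei that passed a second gate. In nuclei with at most 1% mitochondrial UMIs, 0 of 12 basement membrane and capillary genes and 1 of 7 adhesion genes were at or below -1 for Aza-TdC over MASLD (6.2% of all genes). Here too the limit left fewer genes measured than in all nuclei. At or above 1 (8.86%) were 2 of the 12, Lamc1 (1.13) and Vim (1.56), 2 of the 7, Icam1 (1.84) and Vcam1 (1.36), and 3 of 16 regulators, Klf2, Tfec and Nos3. Of the sinusoidal regulators and signalling list, 1 of 17 was at or above 1 for MASLD over SD (Nos3, 43.8 against 21.8 CPM), a share below the 12% of all genes. In nuclei with at most 1% mitochondrial UMIs 3 of 14 were at or below -1 (8.48% of all genes): Tek (-1.40), Erg (-1.16) and Tfec (-1.25). Of the portal and arterial list, 1 of 5 was at or above 1 for MASLD over SD (Ltbp4, 1.62), and of the central vein list 1 of 3 (Rspo3, 1.21), beside 12% of all genes.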

How the data were processed

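Frozen liver (120 mg per library) was homogenized, nuclei were sorted by FACS, and libraries were made with the 10x Genomics 3′ kit, as the labels' protocols state. The files hold UMI counts per gene for each nucleus, not normalized, deposited by the authors; Cell Ranger 6.1.2 is named per the file headers. The submitters' processing notes also list Seurat 4.4.0, mm10 and GRCm38 but no step for them. Intron counting, annotation release and removal of free RNA: not given in the sources used here. Kept were nuclei of at least 500 UMIs and 300 genes whose mitochondrial share was at most 5%, which left out 0, 202 and 7 barcodes. No doublet caller was run, and nuclei that passed a second gate were left out in an alternative. A gate was at least 3 UMIs over 4 genes. UMIs were summed per class and library and scaled to CPM. Levels have exact Poisson, shares Clopper-Pearson and ratios exact conditional binomial 95% intervals, which take UMIs as independent. Ratios to 0 UMIs use a floor of 3 counts per class and library. A gene was counted past a log2 ratio of 1 with at least 20 UMIs over both libraries. Alternatives changed the gate, mitochondrial limit, depth, scaling, minimum count, and hepatocyte RNA subtraction. The genes named were the 10 members, the 4 gate genes, up to 4 genes past 1 of each other list, and the 5 most similar genes; others that the text names, such as Kdr, Pecam1, Mrc1, Ehd3, Dab2, Lamc1 and Vim, were added after their values were seen. The members and lists were chosen with earlier results of these data known. The computations were tested on simulated counts. Gene positions come from GENCODE vM21 (GRCm38), where 32158 of 32285 feature IDs were found. Python 3.11.15, numpy 2.4.6, scipy 1.17.1 and pandas 2.3.3 were used.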

Additional observations from a re-analysis of the deposited data

How the results depend on the processing

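Alternatives to the gate, filters, scaling, minimum count and depth were computed one at a time; that of nuclei at or above the smallest SD barcode was chosen after seeing the data, as were the thinning to 1000 UMIs and the stellate gate of 5 UMIs. The endothelial share was 2.14% in SD with a gate of 2 UMIs. With at most 1% mitochondrial UMIs it was 0.873% in MASLD and 2.11% in Aza-TdC. Thinned to 2000 UMIs it was 0.915%, 1.19% and 0.875% in SD, MASLD and Aza-TdC, and among nuclei at or above the smallest SD barcode 2.00% in MASLD and 1.67% in Aza-TdC. For MASLD over SD, 4 scavenger genes were at or above 1 with a gate of 2 UMIs (11.8% of all genes) and 4 with median-ratio scaling (15.2%). With at most 1% mitochondrial UMIs 0 were at or above 1 and 1 at or below -1, and the median was -0.0266. For Aza-TdC over MASLD that limit gave 0 at or below -1 and a median of -0.0155. Of the capillarization genes, 1 (Plvap) was at or above 1 for Aza-TdC over MASLD with that limit, on 27 and 2 UMIs, and 1 (Plvap) at or below -1 without nuclei that passed another gate. With Vwf-positive nuclei included, Plvap and Edn1 were measured: 1 (Edn1) was at or below -1 for MASLD over SD, 1 (Edn1) at or above 1 for Aza-TdC over MASLD and 2 for Aza-TdC over SD. For single genes, 29 values lay outside the interval of the reported value and 159 did not. The sign changed in 16, each with a reported ratio short of 1, and 7 of these lay outside the interval. With the mitochondrial limit Dnase1l3 was at -0.11 for MASLD over SD and Clec4g at 0.11 for Aza-TdC over MASLD. Without nuclei of a second gate Plvap was at -1.64 for Aza-TdC over MASLD, and with Vwf-positive nuclei Stab2 was at -0.00. For Aza-TdC over SD, thinning gave -0.37 for Stab1 and -0.07 for Clec4g, and the smallest SD barcode as limit gave -0.33 for Stab1. The capillarization count could not be had for MASLD over SD with the mitochondrial limit, or for Aza-TdC over SD without nuclei of a second gate, or for either with thinning or a minimum of 50 UMIs, since Plvap had too few UMIs. No paired analysis was possible because each group had 1 library. The limits of these data are 1 library per group, 113 to 192 Vwf-negative and 7 to 36 Vwf-positive nuclei, and a mitochondrial share that differs with the library.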
